A study of Homo sapiens with 192 samples.

Results

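The 9 genes IFNGR1, IFNGR2, IFNAR1, JAK1, JAK2, STAT2, IRF1, IRF9 and SOCS1 encode receptors, kinases, transcription factors and an inhibitor of interferon signaling, and they were examined in HAP1 nuclei by plate-based snATAC-seq. Members were the chromatin features that lay within 1000 bp of any GENCODE transcription start of a gene (start features) or had their centre inside the gene away from its starts (body features). By this rule 22 of the 80971 features were members, of which 14 were start features and 8 were body features. Each feature was a window of 1001 bp around a peak summit, called on all nuclei together.

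The human line HAP1, nearly haploid and growing attached to the dish, derives from a chronic myeloid leukaemia line. CASB-labeled HAP1 cells, which carry a concanavalin A-bound barcode, and unlabeled HAP1 cells were mixed, tagmented in bulk and sorted as single nuclei into 2 plates, 96 wells each. No interferon or other treatment is named for these nuclei, and the CASB label of a nucleus is not known here. Each plate was therefore 1 sample of the same mixture, no separate cultures are named, and the plates were compared by their values with no test.

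Interferons act through paired receptor chains on the cell surface. The receptor chains carry Janus kinases, which phosphorylate STAT proteins upon ligand binding, and the STAT proteins then enter the nucleus and bind DNA alone or with IRF9. IRF1 is a transcription factor that extends the response, SOCS1 switches the kinases off, and GAS elements and IRF repeats are the short DNA sequences to which STAT dimers and IRF proteins bind.

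Sequences at 4 of these regions are given for the base composition and motif matches described further on. The first 3 are promoter windows of 250 bases before to 50 bases after the start, from RefSeq on GRCh38.p14, of the members whose window held a GAS element (TTCNNNGAA) or an IRF repeat (GAAANNGAA). They lay at chr5:132490724-132491023 on the minus strand (IRF1), chr14:24161015-24161314 on the plus strand (IRF9) and chr16:11256155-11256454 on the minus strand (SOCS1). The last is the central 300 bases of the JAK2 start feature seen in most nuclei, at chr9:4985045-4985344 on the plus strand of hg38. Capitals mark a GAS element in IRF1 and IRF9, an IRF repeat in SOCS1 and a GC box (GGGCGG) in JAK2.
IRF1: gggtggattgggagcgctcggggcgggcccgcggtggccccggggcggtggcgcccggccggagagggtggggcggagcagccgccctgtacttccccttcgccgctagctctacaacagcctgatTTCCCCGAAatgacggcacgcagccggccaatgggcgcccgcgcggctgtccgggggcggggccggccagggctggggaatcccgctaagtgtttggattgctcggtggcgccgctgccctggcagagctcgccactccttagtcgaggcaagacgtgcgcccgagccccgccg
IRF9: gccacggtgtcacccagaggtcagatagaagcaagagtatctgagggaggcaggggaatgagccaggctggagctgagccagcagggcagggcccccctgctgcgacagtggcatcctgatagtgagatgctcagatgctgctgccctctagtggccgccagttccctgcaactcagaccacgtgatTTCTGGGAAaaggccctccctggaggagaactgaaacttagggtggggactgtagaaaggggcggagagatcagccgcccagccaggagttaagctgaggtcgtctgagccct
SOCS1: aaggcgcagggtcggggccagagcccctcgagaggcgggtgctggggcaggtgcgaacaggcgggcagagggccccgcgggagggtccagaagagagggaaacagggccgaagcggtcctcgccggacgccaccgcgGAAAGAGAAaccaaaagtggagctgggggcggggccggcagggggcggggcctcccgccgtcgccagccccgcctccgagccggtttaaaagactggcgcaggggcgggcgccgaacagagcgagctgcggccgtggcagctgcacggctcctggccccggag
JAK2 start: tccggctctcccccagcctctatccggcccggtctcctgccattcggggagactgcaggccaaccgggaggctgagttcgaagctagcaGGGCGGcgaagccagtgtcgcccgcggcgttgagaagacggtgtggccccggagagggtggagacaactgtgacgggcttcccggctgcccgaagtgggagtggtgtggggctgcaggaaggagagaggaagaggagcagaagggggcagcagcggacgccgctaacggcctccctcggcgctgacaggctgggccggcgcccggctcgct

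A nucleus passed with more than 300 peaks, where a peak had to be seen in more than 1 nucleus. In plate 1, 83 of 96 nuclei passed, and in plate 2, 79 of 96. The passing nuclei held 345 to 15351 read pairs in features, with a median of 2029 in plate 1 and 2162 in plate 2. One nucleus was worth 1.20% of plate 1 and 1.27% of plate 2. Taken as 3 nuclei, a count of 0 allowed a share of up to 3.61% and 3.80%. The exact intervals named below reach 4.35% and 4.56% for a count of 0. A start region (all start features of a gene) was called open in a nucleus with at least 1 read pair in it. Intervals are exact (Clopper-Pearson) 95% intervals for shares and exact Poisson intervals for read pairs. They cover counting error only, since each plate is 1 sample. The read pairs carry no molecular identifiers, and a nucleus without a read pair was not shown to be closed.

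The nuclei, which the labels number within each plate, did not all hold independent reads. The intervals take them as independent and can therefore be too narrow. Within a plate, nuclei 37 to 48 shared features with nuclei 73 to 84, and these with nuclei 85 to 96. Of the 25114 features seen in exactly 2 nuclei of both plates together, 17777 (70.8%) had both nuclei in 1 of these 48 number pairs, which make up 0.262% of all pairs of nuclei. In total 71 passing nuclei had these numbers and 91 had others. Values without them are given beside the start regions, and the cause was not tested.

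In genes that mark adherent cells, all 8 of the list (VIM, CD44, FN1, ITGB1, CAV1, YAP1, WWTR1 and CDH2) had a start feature, beside 56% of all protein-coding genes, and their summed nuclei were 72 in plate 1 and 75 in plate 2. In genes that mark blood cells, 1 of 8 had one, TAL1, whose summed nuclei were 2 and 1, while no feature lay within 1000 bp of a start of the other 7, among them the leukocyte gene PTPRC and the myeloid gene SPI1.

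All 9 interferon genes had a start feature, beside 56% of the 20046 protein-coding genes. The 9 genes were chosen with earlier results of these data known, so nothing is read from that count. Their start regions were open in few nuclei each. Counting the 83 and 79 passing nuclei together, IRF1 (25 nuclei) and JAK2 (24) were the most widely open, and IFNGR2 (4) and IFNAR1 (2) the least. The median member was open in 8 nuclei, or 4.94%, beside 9 nuclei, or 5.56%, over the 11233 protein-coding genes with a start feature. The middle of the members ran from 5 to 13 nuclei and that of all start regions from 5 to 15. Start regions seen in at least 10 passing nuclei were 3 of the 9 members and 45.6% of all, so the members stood near the background in how widely they were open. In the number of start features, 5 of the 9 members (55.6%) had a single one, beside 59.5% of all genes with one.

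**Figure D1:**
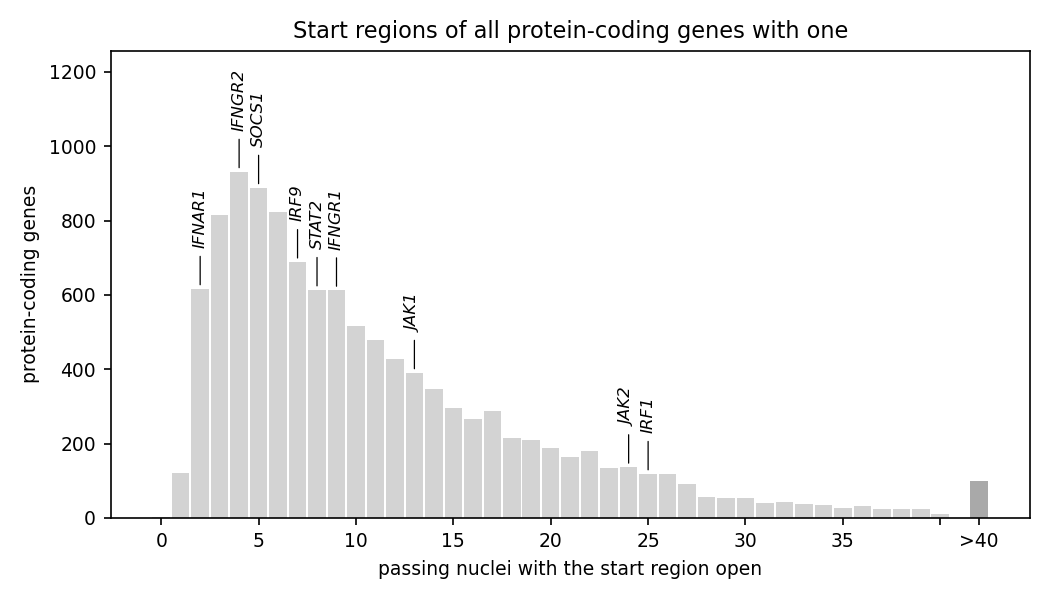
Number of protein-coding genes (vertical axis) by the number of passing nuclei, both plates together, in which their start region was open (horizontal axis), with the members marked. The members spread from 2 to 25 nuclei around the overall median of 9, with JAK2 and IRF1 in the upper part.

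Among the receptor chains, IFNGR1, the ligand-binding chain of the interferon-gamma receptor, was seen most often. Its start feature (chr6:137218797-137219797) contained the canonical start, which lies on the minus strand, and its centre was in the UTR 88 bases downstream of it. The region was open in 2 nuclei of plate 1 (2.41%, interval 0.293 to 8.43) and in 7 of plate 2 (8.86%, interval 3.64 to 17.4). Plate 2 was 3.68-fold higher, the largest ratio among the 9 genes, but the intervals overlapped and the gene was seen in fewer than the 10 nuclei set for a comparison of plates. Each of its 9 nuclei held 1 read pair, and 4 of them lay outside the paired numbers. Both nuclei of 1 of the number pairs were among the 9.

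IFNGR2, the second chain of the same receptor, was open in 1 nucleus of plate 1 (1.20%) and 3 of plate 2 (3.80%). The feature lay at chr21:33403262-33404262, contained a start of IFNGR2 and was also within 1000 bp of a start of ENSG00000289939. Only 1 of the 4 nuclei lay outside the paired numbers, and both nuclei of 1 of the number pairs were among the 4. A body feature at chr21:33447128-33448128, which also lay inside TMEM50B and within 1000 bp of a start of TMEM50B, was seen in 1 nucleus.

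IFNAR1, a chain of the type I interferon receptor on the same chromosome as IFNGR2, was open in 1 nucleus of each plate (1.20% and 1.27%). Its start feature lay at chr21:33324258-33325258 and also inside ENSG00000289238. Both of its nuclei had paired numbers, so that outside them 0 of 91 nuclei were open. An intronic feature of IFNAR1 at chr21:33331812-33332812, 7342 bases downstream of the start, was seen in 1 nucleus of plate 1 and 2 of plate 2. Both nuclei of 1 of the number pairs were among these.

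The kinases JAK1 and JAK2 bind the receptor chains, JAK1 in both receptor types and JAK2 in the interferon-gamma receptor. JAK2 was open in 12 nuclei of plate 1 (14.5%, interval 7.70 to 23.9) and 12 of plate 2 (15.2%, interval 8.10 to 25.03). The ratio of the plates was 1.05. With at least 2 read pairs asked for an open region, JAK2 was open in 4 nuclei of plate 1 (4.82%) and 9 of plate 2 (11.4%), a ratio of 2.36, though a read pair in both of its overlapping features counts as 2 there. JAK2 stood at percentile 91.5 of all start regions, and 14 of its 24 nuclei lay outside the paired numbers, which is 15.4% of those 91.

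The signal of JAK2 came mainly from 1 feature. The feature at chr9:4984694-4985694, whose GC-rich centre is printed above, had its centre 78 bases upstream of the canonical start and was seen in 10 nuclei of plate 1 and 11 of plate 2. Its neighbour at chr9:4985519-4986519, in the UTR, was seen in 4 and 9 nuclei. Both windows overlap, so a read pair can count in each. In the body of JAK2, the 2 features seen in most nuclei lay at chr9:4993998-4994998 (3 nuclei of plate 1 and 1 of plate 2) and chr9:5085818-5086818 (2 and 0), the second of them at a start of the pseudogene PDSS1P1. The remaining body feature, at chr9:5032055-5033055, was seen in 1 nucleus, with 6 read pairs.

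JAK1 was open in 5 nuclei of plate 1 (6.02%, interval 1.98 to 13.5) and 8 of plate 2 (10.1%, interval 4.47 to 18.98). The ratio was 1.68 and the intervals overlapped. Outside the paired numbers it was open in 4 nuclei of plate 1 (8.33%) and 2 of plate 2 (4.65%), so the direction between the plates turned. The gene has starts far apart, and its total joined 2 features. The feature at the canonical start (chr1:64966214-64967214) was seen in 3 and 4 nuclei. The feature far upstream (chr1:65066434-65067434) was seen in 2 and 4 nuclei and also lay near a start of ENSG00000288804. It contained no start of JAK1, and the nearest lay 180 bases from it. With the canonical start alone, JAK1 fell from 8.02% to 4.32% of the passing nuclei.

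The JAK1 feature seen most often was not at a start. An intronic feature inside the longer transcripts of JAK1, upstream of the canonical start, was seen in 8 nuclei of plate 1 and 9 of plate 2. These 17 nuclei were more than either JAK1 start feature had, and 5 of them had paired numbers. Both nuclei of 1 of the number pairs were among the 17. Of the 26139 features in the bodies of protein-coding genes away from starts, 357 (1.37%) were seen in at least as many nuclei, and the median was 3. A second body feature of JAK1, at chr1:65002227-65003227, was seen in 3 and 1 nuclei and lay at a start of LINC01359.

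**Figure D2:**
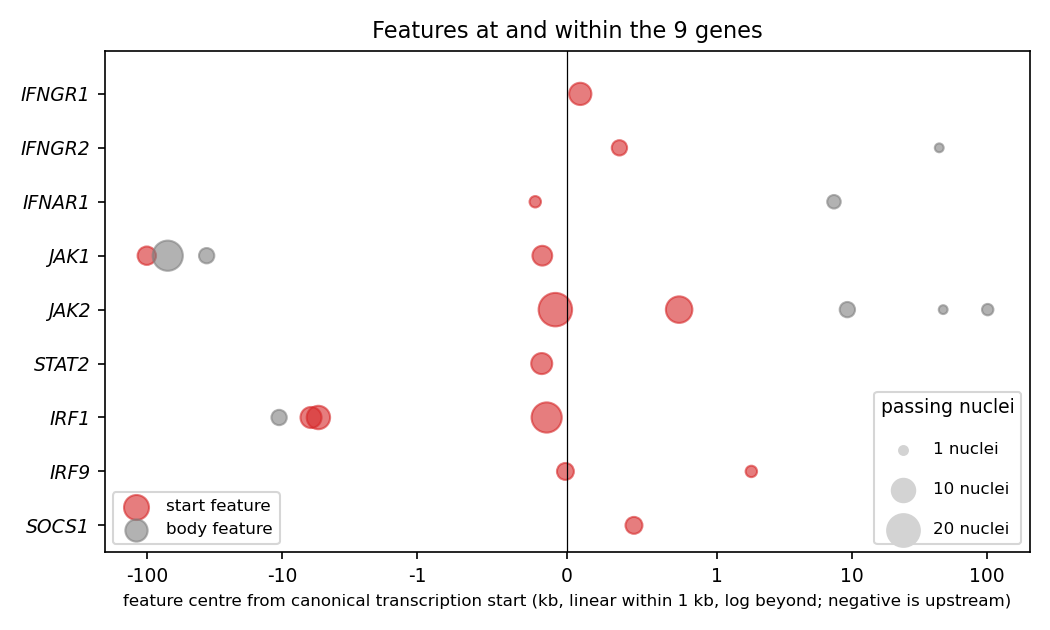
Position of the 22 member features along the horizontal axis, as distance of the centre from the canonical start in kb, for each gene (rows), with marker area growing with the number of passing nuclei. The JAK1 intron feature, 17 nuclei, stands far upstream of the canonical start, and most other large markers lie at the starts.

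STAT2, which joins IRF9 in the complex formed after type I interferon, was open in 3 nuclei of plate 1 (3.61%, interval 0.752 to 10.2) and 5 of plate 2 (6.33%, interval 2.09 to 14.2). Its feature at chr12:56359776-56360776 contained the canonical start, with its centre just outside the gene. Here 7 of the 8 nuclei lay outside the paired numbers. IRF9, the DNA-binding partner in that complex, was open in 4 nuclei of plate 1 (4.82%) and 3 of plate 2 (3.80%), but only 2 of its 7 nuclei lay outside. Its feature at chr14:24160754-24161754 was seen in 2 and 3 nuclei and is shared with a start of RNF31. Its second feature, at chr14:24162559-24163559, was seen in 2 nuclei of plate 1, which were 1 of the number pairs.

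With its 3 start features joined, IRF1 had the start region open in most nuclei. It was open in 12 nuclei of plate 1 (14.5%, interval 7.70 to 23.9) and 13 of plate 2 (16.5%, interval 9.06 to 26.5), at percentile 92.6 of all start regions. The plates overlapped almost fully, with a ratio of 1.14. Outside the paired numbers 12 of 91 nuclei (13.2%) were open, fewer than for JAK2. With the canonical start alone IRF1 fell to 17 nuclei (10.5%, interval 6.23 to 16.3), beside 24 for JAK2, and with at least 2 read pairs it was 10 beside 13.

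The IRF1 signal came from 3 start features. The feature at the canonical start (chr5:132490409-132491409), containing that start, was seen in 9 nuclei of plate 1 and 8 of plate 2. The features at the upstream starts, with centres 5380 and 6102 bases upstream (chr5:132495653-132496653 and chr5:132496375-132497375), were seen in 5 and 5 and in 3 and 5 nuclei, and they overlap each other. All 3 also lay inside ENSG00000283782. A body feature at chr5:132500789-132501789 was seen in 4 nuclei of plate 2, all with paired numbers. For 2 of the number pairs both nuclei were among these 4. Among other protein-coding genes, 16 had the same numbers of open nuclei in both plates as IRF1, 12 and 13. The first in genome order were SCYL3, KCNS3 and EPM2AIP1.

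SOCS1, the inhibitor that binds the Janus kinases and is itself induced by interferon, was open in 3 nuclei of plate 1 (3.61%) and 2 of plate 2 (2.53%). Its feature at chr16:11255258-11256258 contained the start of this short gene and was also inside RMI2. The read pairs were 4 in each plate, and 4 of the 5 nuclei lay outside the paired numbers.

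**Figure D3:**
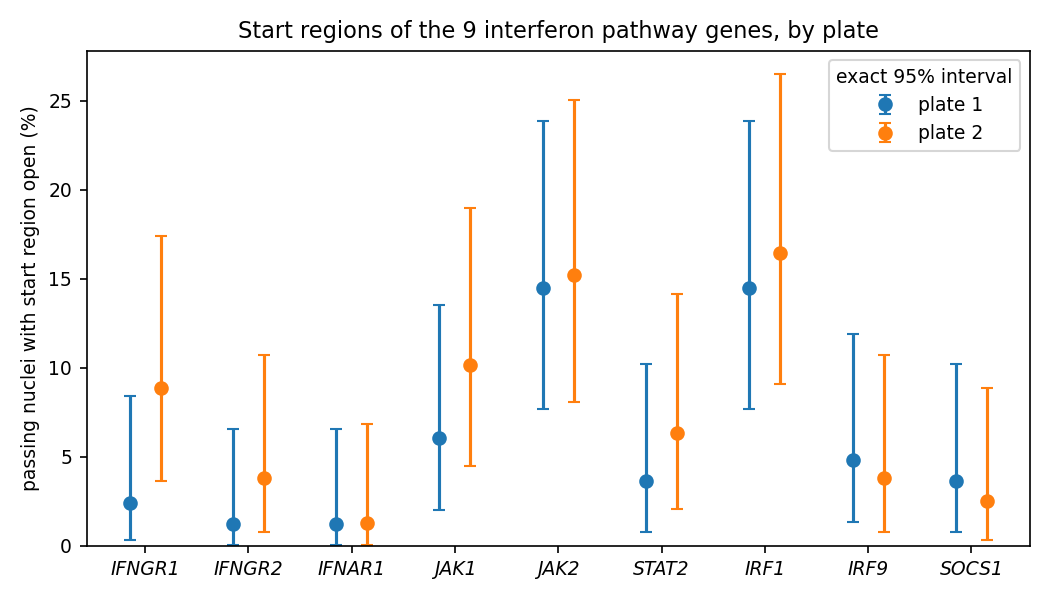
Share of passing nuclei (%) with the start region of each gene open, by plate, with exact 95% intervals for counting error. For each of the 9 genes the intervals of plate 1 (83 nuclei) and plate 2 (79 nuclei) overlap.

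Across the 9 genes the share was higher in plate 2 for 7 of 9 genes and lower for IRF9 and SOCS1, beside 57.4% of all start regions that were higher in plate 2. Outside the paired numbers it was higher in plate 2 for 6 of 9, but these were not the same genes. There IRF9 and SOCS1 turned higher in plate 2, JAK1 and JAK2 turned lower, and IFNAR1 was open in 0 nuclei. The same count over all start regions was not made for these nuclei. The intervals of the plates overlapped for 9 of 9 genes and for 99.7% of all start regions, so nothing is read from that count. Of the 3 members seen in at least 10 nuclei, IRF1, JAK2 and JAK1, 0 were past 2-fold between plates, beside 18.6% of the 5123 start regions at that level. In read pairs per 1000000 read pairs of the plate, the members ran from 4.17 (IFNAR1 and IFNGR2) to 83.3 (JAK2) in plate 1 and from 8.39 (IFNAR1) to 104.9 (JAK2) in plate 2, where a pair in overlapping features counted in each.

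The order of the genes was IRF1, JAK2, JAK1, IFNGR1, STAT2, IRF9, SOCS1, IFNGR2 and IFNAR1. The intervals of all 8 neighbours in this order overlapped. Of the 36 pairs of genes, 10 had intervals that did not overlap, and these set IRF1 or JAK2 against STAT2, IRF9, SOCS1, IFNGR2 or IFNAR1. The same count over pairs of all start regions was not made, so nothing about the pathway is read from such counts. Outside the paired numbers JAK2 (14 nuclei) led, followed by IRF1 (12), STAT2 (7) and JAK1 (6), and 5 pairs did not overlap. With the canonical start alone it was 8 pairs, of which 2 held IRF1 and 6 held JAK2. With each nucleus thinned to 600 read pairs it was 0 pairs, where IRF1 was open in 7 nuclei and JAK2 in 5. The intervals describe counts from the same nuclei, and IRF1, JAK1, JAK2 and IRF9 had more than 1 start feature, which widens a region.

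Any member start region was open in 27 of 83 nuclei of plate 1 (32.5%, interval 22.6 to 43.7) and 35 of 79 of plate 2 (44.3%, interval 33.1 to 55.9). Without the paired numbers it was 35 of 91. No member region was open in 100 nuclei, 1 in 39, 2 in 14 and 3 in 7. The nucleus with most, in plate 1, had 5 open (IFNAR1, JAK1, JAK2, IRF1 and SOCS1), and the next, in plate 2, had 4 (IFNGR1, JAK1, JAK2 and IRF1).

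Openness moved with the depth of the nucleus. Of the 41 passing nuclei with the fewest read pairs (345 to 1090), 2 had any member region open, and of the 40 with the most (4109 to 15351), 31 did (77.5%). The 2 groups between them had 11 of 40 and 18 of 41. IRF1 was open in 0, 2, 11 and 12 nuclei from the shallowest to the deepest group and JAK2 in 1, 4, 3 and 16. IFNAR1 was seen only in the deepest group, in 2 nuclei. Nuclei with no member region open had a median of 1356.5 read pairs, and those with 1 open had 3782.

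**Figure D4:**
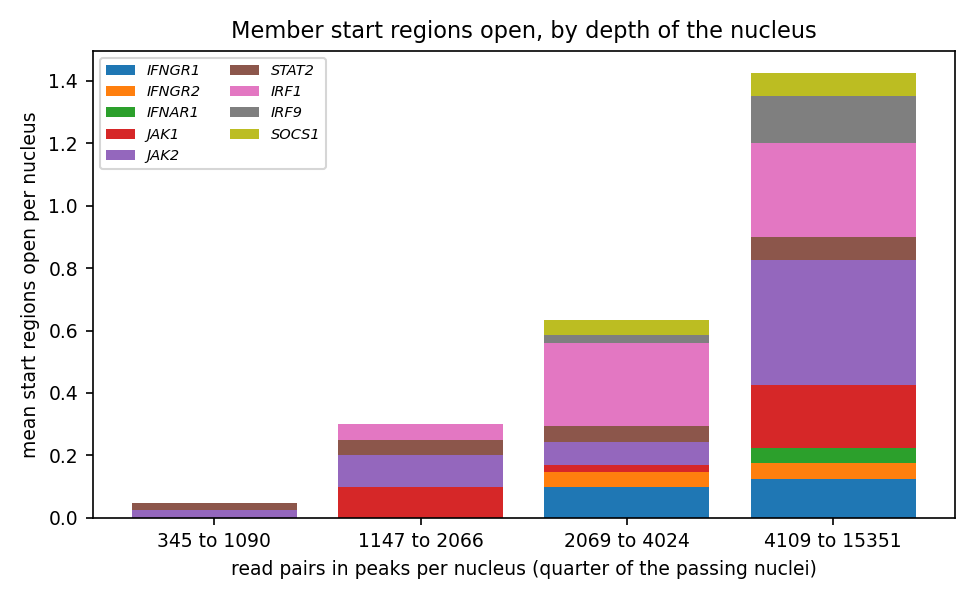
Mean number of member start regions open per nucleus (vertical axis), stacked by gene, for 4 groups of passing nuclei ordered by read pairs per nucleus (horizontal axis). The mean rises from 0.0488 in the shallowest to 1.43 in the deepest group.

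Beyond the starts, 4 of the 9 genes (IFNAR1, JAK1, JAK2 and IRF1) had a body feature seen in more than 1 nucleus, beside 36.7% of protein-coding genes. There were 6 such features. Per 10 kb of gene the number was 0.282 in IFNAR1, 0.146 in IRF1, 0.137 in JAK2 and 0.0853 in JAK1. In the same order, these stood at percentiles 82.1, 70.5, 69.7 and 65.5 of all protein-coding genes. The longest gene, JAK1, thus had the lowest density of these 4. The values of IFNAR1 and IRF1 rested on 1 feature each, with 2 of 3 and 4 of 4 nuclei in the paired numbers. Without the paired numbers, 4 features were seen in more than 1 nucleus, all in JAK1 and JAK2. IFNGR1, STAT2, IRF9 and SOCS1 had no body feature. The 8 body features were seen in 1 to 17 nuclei, with a median of 3.5, and the 14 start features in 2 to 21, with a median of 7.5.

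The other genes of the pathway were given by a list of 41. Of all protein-coding genes 56% had a start feature, the share to set beside the counts below, and lacking one does not show a closed start. No feature lay within 1000 bp of a start of the receptors IFNAR2, IFNLR1 and IL10RB, the kinases TYK2 and JAK3 or the 5 ligands. The signal transducer STAT6 had a start region open in 15 nuclei. Among regulatory factors 4 of 9 had a start feature, with IRF2BP2 (14 nuclei) and IRF7 (10) the widest and IRF2 (7) and IRF4 (4) the narrowest. Among inhibitors it was 10 of 16, with SOCS2 (13) and PIAS1 (11) the widest, SOCS3 (2) the narrowest, and SOCS6 and PTPN1 (3 each) next.

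The start features of the members were rich in G and C bases. Their median was 65.1% (47.7 to 75.7), beside 59.04% over all 16007 start features, and the median CpG ratio (observed over expected) was 0.788 beside 0.713. The features of IRF9 stood apart with CpG ratios of 0.128 and 0.195, the lowest of the 14.

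**Figure D5:**
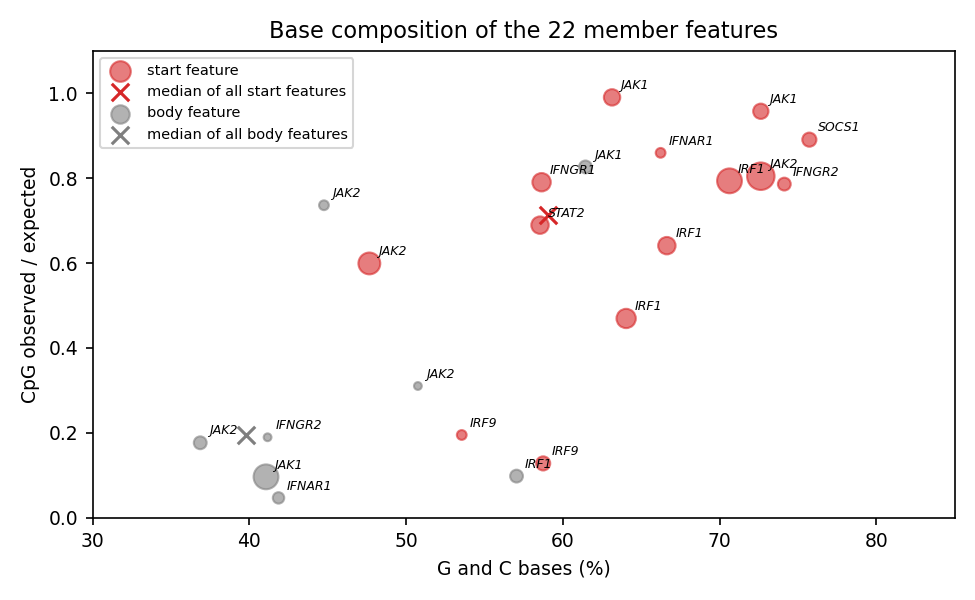
CpG ratio, observed over expected (vertical axis), against the percentage of G and C bases (horizontal axis) for the member features, with marker area growing with the number of passing nuclei and crosses for the medians of all features. IRF9 start features lie low, at 0.128 and 0.195, below the other start features.

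The starts were searched for letters bound by STAT and IRF proteins and by general factors. On both strands, a GAS element was in 5 of the 14 start features (35.7%, beside 21.3% of all start features), namely those of IFNGR2, IRF1 (3 features) and 1 of IRF9. An IRF repeat was in 3 (21.4%, beside 23.97%), those of IFNGR1 and the overlapping upstream features of IRF1. A GC box was in 13 of 14 (92.9%, beside 73.9%) and a CCAAT box in 5 (35.7%, beside 65.3%). The NF-kappaB motif was in 8 (57.1%, beside 33.9%), the AP-1 letters TGACTCA in 1 (beside 10.0%), and the ETS letters CCGGAAG and the CRE letters TGACGTCA in 0 (beside 19.1% and 2.91%).

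The RefSeq windows of 300 bases were 16 for the 9 genes. A GAS element was in 2 of these windows, at IRF1 and IRF9 (beside 7.66% of all 35116 windows). An IRF repeat was in 1, at SOCS1 (beside 8.11%). The IRF1 element TTCCCCGAA lay upstream of the start at chr5:132490889-132490897, and the IRF9 element TTCTGGGAA lay upstream at chr14:24161202-24161210. Both were inside the start features of these genes, seen in 17 and 5 nuclei. The SOCS1 repeat GAAAGAGAA, upstream of the start at chr16:11256309-11256317, lay 51 bases outside the SOCS1 start feature. A GC box was in 10 of the 16 windows, at least 1 for each of the 9 genes (beside 44.95% of all windows). The NF-kappaB motif was in 4 of the 16, at IFNGR1, IFNGR2, IRF1 and SOCS1 (beside 11.3%). The CCAAT box was in 2, at IRF1 and STAT2 (beside 34.6%), and the ETS letters in 2, at IFNGR2 and JAK1 (beside 10.3%). The AP-1 and CRE letters were in 0 of the 16 windows (beside 4.95% and 1.85%). These are matches of letters and are not shown to be bound.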

How the data were processed

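Plate-based snATAC-seq of HAP1 nuclei in 2 plates of 96 was analysed from the deposited table, which holds raw read pair counts for each nucleus and feature. According to the study's methods, the authors trimmed reads with fastp, aligned them to hg38 with bowtie2, removed duplicates with Sambamba, called peaks with MACS2 on all nuclei together and counted read pairs with featureCounts (1.6.0), so both plates share 1 feature set. No normalization was applied to these counts. Overlapping features could each receive the same read pair. All count columns matched a nucleus and 0 were left over. Duplicates were removed nucleus by nucleus, so a molecule read in 2 wells counts in both.

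Feature coordinates were checked against hg38 chromosome names and lengths. Transcription starts came from GENCODE 44. The matrix was binarized, and nuclei with more than 300 peaks (each seen in more than 1 nucleus) passed. Plates were the samples, with 1 sample each, so no test was made. Plate shares were compared where a region was open in at least 10 passing nuclei, as past 2-fold or not. For a gene, all its start features were joined. Every member was named with its start features and the 2 body features seen in most nuclei. Of the pathway list, the genes seen in most and fewest nuclei of each role were named, and the cell markers, motifs and likeness to the widest member followed fixed lists. The members and lists were chosen with earlier results of these data known. Motifs were searched on both strands, as letters. Calculations used pandas 2.3.3 and NumPy 2.4.6 under Python 3.11.15, intervals SciPy 1.17.1 and plots matplotlib 3.10.9, and the code was tested on simulated data. Alternatives were the start definition, the nuclei used, thinning to 600 read pairs, at least 2 read pairs per open region, and other minimums. Nuclei were not split by CASB label, and other experiments of the study were not analysed here. Some items, among them 1 gene of the pathway list, are not reported here.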

Additional observations from a re-analysis of the deposited data

How the results depend on the processing

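Depth limits these values, since 1 nucleus is 0.617% of the passing nuclei. A count of 0 allows up to 1.85% when taken as 3 nuclei, and up to 2.25% by the exact interval. The median member share, 4.94%, fell to 0.685% with each nucleus thinned to 600 read pairs (73 nuclei of each plate, with 10 of plate 1 and 6 of plate 2 left out), where the median of all start regions was 1.37%, and to 0.617% with at least 2 read pairs per open region, where it was 1.23%. It was 4.32% with features that contain a start or the canonical start alone, 4.17% over all nuclei, passing or not, 5.88% with more than 1000 peaks and 4.40% without the paired numbers. With at least 5 nuclei, 1 member (IFNGR1) was past 2-fold between plates, beside 27.7% of start regions, and with at least 2 read pairs, an alternative chosen after seeing the data, it was 1 of 2 (JAK2), beside 22.7%. Thinned, no member reached 10 nuclei. Body features were 1 when seen in at least 5 nuclei, and 4 without the paired numbers, also chosen after seeing the data. Of 63 shares of single genes under the alternatives, 24 changed by over 1.5 times, 9 of them under thinning, 9 with 2 read pairs and 4 without the paired numbers, and 18 left the exact interval of the reported share, which is wide at these counts. Of 63 percentiles, 16 changed by over 1.5 times. The cause was not tested. No paired analysis was possible because each plate is 1 sample, the shared numbers only name nuclei, and the results come from no test.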

Other observations

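Genes of the pathway were also counted together in the same nucleus. IRF1 and JAK2 were both open in 7 of the 42 nuclei with either, IFNGR1 and JAK2 in 4 of 29, JAK1 and JAK2 in 4 of 33, and IRF1 and SOCS1 in 3 of 27. The 2 chains of the interferon-gamma receptor, IFNGR1 and IFNGR2, were open together in 0 of 13 nuclei, STAT2 and IRF9 in 0 of 15, and IFNAR1 and STAT2 in 0 of 10. The deepest nuclei held most of the open regions, so these counts are a description of sparse data. The pairs of genes were picked, and no counts for other pairs were set beside them. With so few open nuclei per gene, a count of 0 does not show that 2 genes open apart.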
